A study of Mus musculus with 16 samples.

Results

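The genes described here are Upk1b, Upk3b, Crb2, Msln, Wt1, Krt8, Krt18, Krt19 and Epcam, 9 of the 21938 protein-coding genes of the GENCODE M21 annotation. They were listed by name as genes of epithelia and of the mesothelium. Upk1b and Crb2 were chosen by measured values, since RNA polymerase II (Pol II) peaks were called at their promoters in Atxn7l3-/- mouse embryonic fibroblasts (MEFs) and not in Atxn7l3+/+ MEFs. Those promoter calls are therefore given as a description and not as a finding. Whether promoter calls also guided the choice of the other 7 genes is not known, so their calls in MEFs are read in the same way.

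To locate Pol II and monoubiquitylated histone H2B (H2Bub1) on chromatin, chromatin immunoprecipitation followed by sequencing (ChIP-seq) was carried out with an antibody against RPB1, the largest subunit of Pol II, and with an antibody against H2Bub1. Chromatin came from mouse embryonic stem cells (mESCs) and from MEFs, each as Atxn7l3+/+ (WT) and as Atxn7l3-/- (KO), all of the strain given as DBA/2 x C57BL/6 and with no specific treatment. This gives 8 groups with 1 library per group and 8 peak lists. There are no replicates, so no difference has a replicate check, no p-value is given, and the read depth of the lists is not known.

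ATXN7L3 is an adaptor without which the deubiquitylases USP22, USP27X and USP51 do not take ubiquitin off H2B. H2Bub1 is laid down over the bodies of transcribed genes while Pol II elongates. The KO allele is a constitutive null allele, and the targeting construct flanked exons 2 to 12 of Atxn7l3. The mESCs grew from blastocysts in medium with LIF, 15% foetal calf serum, PD0325901 (1 uM) and CH99021 (3 uM). MEFs were made from E10.5 embryos without head and gastrointestinal tract, dissociated whole and plated per embryo, so that any cell type of the trunk could enter a culture. The study calls the KO cultures MEF-like and describes round cells in them. From RNA-seq set against many mouse cell types and tissues, it also reports that these cultures grouped with WT MEFs or fibroblasts. It proposes a fibroblast lineage for them.

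The mesothelium is the flat epithelium of mesodermal origin that lines the body cavities and covers the organs within them. Unlike most epithelia it carries mesenchymal features beside keratins, and during development some of its cells leave the layer to become fibroblasts and smooth muscle. Wt1, a zinc finger transcription factor, and Msln, the cell surface glycoprotein mesothelin, are its classical markers. Upk1b, a tetraspanin, and Upk3b belong to the uroplakins, known from the plaques of the bladder surface, and both are also made by mesothelial cells. Crb2, a crumbs family transmembrane protein, marks the apical domain of polarised cells. Krt8, Krt18 and Krt19 are the intermediate filament proteins of simple epithelia, and Epcam is an adhesion molecule of most epithelia that mature mesothelium lacks.

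The markers of the labelled cell types were checked first. Pol II promoter peaks, defined as at least 1 bp of peak within 1000 bp of the transcription start site (TSS) of the gene record, were called at 12 of 12 fibroblast markers in WT MEFs and at 11 of 12 in KO MEFs. They were called at 6 of 6 pluripotency markers in both mESC lists, at 0 of 6 in WT MEFs and at 1 of 6, Tfcp2l1, in KO MEFs. Of 183 Y-linked protein-coding genes, 4 had a promoter peak in WT MEFs and 0 in each other list, so that genotype and the sex of the embryos cannot be told apart in MEFs. Across exons 2 to 12 of Atxn7l3, H2Bub1 peaks covered 100% in the WT mESC list and 13% in the KO mESC list. In MEFs the same span was covered to 21.6% in WT and 19.6% in KO, a smaller difference. Pol II peaks over that span had a share of 20.7% (WT) against 11.9% (KO) for mESCs, and of 19.3% (WT) against 10.9% (KO) for MEFs. Peaks of both marks thus remained in the flanked part in each KO list, and the MEF labels were not settled by them. The study itself reports, from western blots, that ATXN7L3 protein could not be detected in KO mESCs or KO MEFs.

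In KO MEFs, Pol II occupied the promoters of the genes for the uroplakins Upk1b and Upk3b, the polarity protein Crb2, mesothelin (Msln) and Wt1. None of these 5 promoters had a Pol II peak in WT MEFs or in mESCs of either genotype. The keratin genes Krt8, Krt18 and Krt19 had no promoter peak at the start of the gene record in any of the 4 Pol II lists. Epcam had promoter peaks in both mESC lists and in neither MEF list. Thus 5 of the 9 genes were called in KO MEFs only, against 1.46% of all genes, and 0 of 9 in WT MEFs, against 54.1% of all genes. In KO MEFs 51.1% of all genes were called. No peak of either mark was called in any MEF list at 3 of the 9 genes, Krt8, Krt18 and Epcam, against 36.9% of all genes. Pol II promoter peaks of the set in KO MEFs thus lay at the mesothelial, uroplakin and crumbs genes and not at the keratin genes or Epcam. A ChIP-seq list of a culture cannot tell a few cells with strong occupancy from many cells with weak occupancy.

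**Figure D1:**
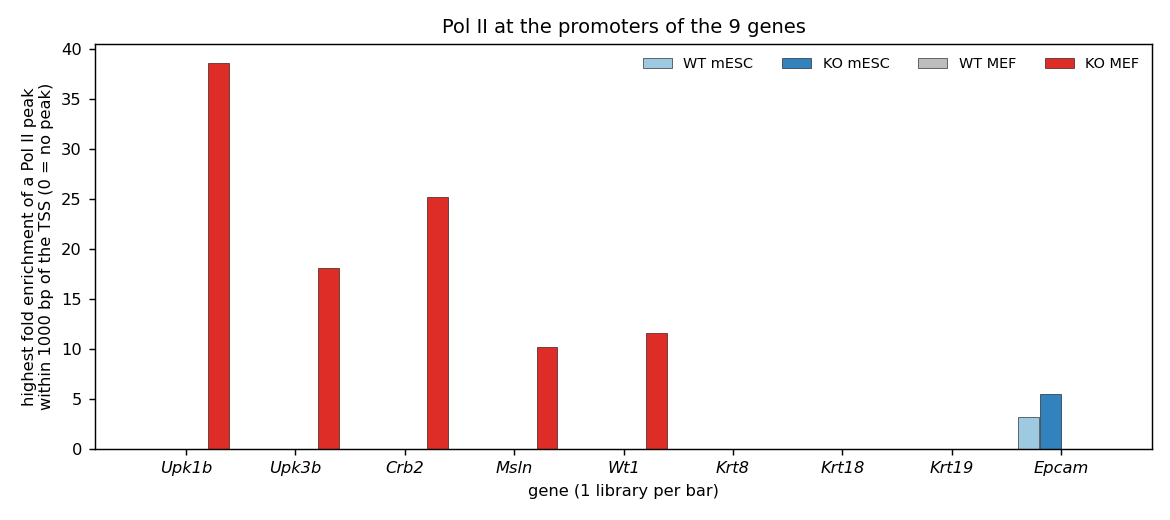
Highest fold enrichment of a Pol II peak within 1000 bp of the TSS (vertical axis, 0 where no peak was called) for the 9 genes, with 1 bar for each of the 4 libraries. Bars stand in KO MEFs at Upk1b (38.6), Upk3b (18.1), Crb2 (25.2), Msln (10.2) and Wt1 (11.6), and in mESCs at Epcam alone.

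The fold is the deposited ratio of the pileup at the summit to the local background. Whether that background was taken from an input library is not stated in the sources used here. Upk1b had the highest value of all 321 promoters called in KO MEFs only, 38.6, and stood in place 39 of the 11213 promoters called in KO MEFs. Crb2, at 25.2, took place 3 of the 321 and place 533 of the 11213. Upk3b, at 18.1, took place 8 of the 321. Wt1, at 11.6, and Msln, at 10.2, took places 25 and 32. All 5 stood above the median fold of promoters called in KO MEFs only, 4.26. The median of all promoters called in KO MEFs was 11.5, close to the values of Wt1 and Msln. Since Upk1b and Crb2 were chosen by their calls in KO MEFs, and the others perhaps too, these places are a description and not a finding.

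Where the WT peak nearest to each TSS lay differed between the genes. In WT MEFs it lay 94.0 kb from the Wt1 TSS, 57.5 kb from that of Upk1b and 13.2 kb from that of Upk3b. For Crb2 the nearest WT MEF peak lay 4182 bp upstream, and for Msln 2187 bp upstream. The Msln peak in WT MEFs, of fold 2.83, is the nearest miss to the window among the 5. The calls nearest to the edge of the window on its inner side were those of Epcam, 366 bp from the TSS in WT mESCs and 504 bp in KO mESCs. In KO MEFs the nearest misses were at Krt18, 2259 bp upstream, and Krt19, 2654 bp downstream. The WT list was not empty around these genes. Within 250 kb on either side of the TSS it held between 6 peaks (Wt1) and 49 peaks (Upk3b) at the 5 genes. The WT MEF list was also the longer one, with 45870 Pol II peaks against 32232 in KO MEFs.

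Promoter sequences were found in the RefSeq table of GRCm38.p6 for 5 of the 9 genes, Crb2, Upk3b, Krt8, Krt18 and Epcam. Upk1b, Msln, Wt1 and Krt19 had no entry. They are printed because they allow promoters with Pol II in KO MEFs (Crb2 and Upk3b) to be read beside promoters of the set without it (Krt8, Krt18 and Epcam). Each runs 5′ to 3′ over 300 bases, 250 before and 50 from the RefSeq start on, in lower case. Capitals mark matches, on either strand, to 7 motifs. These were TATAAA, known as a site of the TATA-binding protein, GGGCGG, a site of SP1, CCAAT, a site of NF-Y, CACCTG, an E-box that SNAI and ZEB repressors can bind, CATTCC, a site of TEAD factors, TGACTCA, a site of AP-1, and AACCGGTT, a site of grainyhead-like factors.
Crb2 (chr2:37775999-37776298, plus strand): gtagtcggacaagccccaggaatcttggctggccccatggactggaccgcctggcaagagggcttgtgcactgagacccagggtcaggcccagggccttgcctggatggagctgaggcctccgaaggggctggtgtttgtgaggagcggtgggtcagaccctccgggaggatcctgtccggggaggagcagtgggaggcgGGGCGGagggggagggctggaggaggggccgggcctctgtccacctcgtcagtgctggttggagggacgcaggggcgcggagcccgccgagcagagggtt
Upk3b (chr5:136038246-136038545, plus strand): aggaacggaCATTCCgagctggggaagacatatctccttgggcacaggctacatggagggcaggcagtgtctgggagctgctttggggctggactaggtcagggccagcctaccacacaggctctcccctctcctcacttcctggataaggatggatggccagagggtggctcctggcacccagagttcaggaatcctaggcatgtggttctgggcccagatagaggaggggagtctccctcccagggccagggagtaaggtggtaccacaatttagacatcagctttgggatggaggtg
Krt8 (chr15:102004293-102004592, minus strand): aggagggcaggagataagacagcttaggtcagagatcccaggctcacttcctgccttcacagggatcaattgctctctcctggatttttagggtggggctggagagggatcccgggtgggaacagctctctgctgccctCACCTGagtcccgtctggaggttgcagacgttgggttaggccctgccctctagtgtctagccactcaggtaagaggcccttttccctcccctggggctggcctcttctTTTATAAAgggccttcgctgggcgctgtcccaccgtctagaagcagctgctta
Krt18 (chr15:102027966-102028265, plus strand): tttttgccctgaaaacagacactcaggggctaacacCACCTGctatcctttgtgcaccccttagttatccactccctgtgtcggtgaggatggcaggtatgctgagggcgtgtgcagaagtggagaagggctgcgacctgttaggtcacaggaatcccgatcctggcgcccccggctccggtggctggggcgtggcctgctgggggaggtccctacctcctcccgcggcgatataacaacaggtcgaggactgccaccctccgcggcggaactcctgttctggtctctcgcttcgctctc
Epcam (chr17:87635729-87636028, plus strand): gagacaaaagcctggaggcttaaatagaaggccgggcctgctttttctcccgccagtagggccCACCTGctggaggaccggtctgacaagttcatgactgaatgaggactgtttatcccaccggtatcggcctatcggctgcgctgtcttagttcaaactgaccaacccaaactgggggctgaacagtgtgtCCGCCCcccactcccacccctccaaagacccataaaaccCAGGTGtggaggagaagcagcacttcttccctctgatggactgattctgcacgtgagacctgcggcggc

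The Crb2 promoter held 15 CpG dinucleotides and 69.3% G and C, and that of Upk3b held 2 CpG dinucleotides and 58.7% G and C. The medians over all 32851 promoters of the table were 7 CpG dinucleotides and 52.7%. The pair with Pol II in KO MEFs thus lay on either side of the median for CpG. The CACCTG E-box was matched in the windows of Krt8 and Krt18 once each and of Epcam at 2 places, and in 20.2% of all promoters. The Crb2 and Upk3b windows did not hold these letters. GGGCGG was matched in Crb2 and Epcam (35.7% of all promoters). The TEAD motif was matched in Upk3b (14.7%). In Krt8 the run TTTATAAA matched TATAAA on both strands with overlapping matches (13.6% of promoters hold a match). CCAAT (37.4%), AP-1 (5.2%) and grainyhead (0.146%) motifs were not matched in these 5 windows. A match is a description of the letters and not a bound site, and 5 windows are too few to set the groups apart.

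Upk1b (ENSMUSG00000049436, minus strand, mm10 chr16:38773184-38800328) carried the widest occupancy. In KO MEFs its promoter peak began 334 bp upstream of the TSS and ran without a break to 10869 bp into the gene, with its summit at +181, in an intron. Together with 7 further peaks the promoter peak covered 87.2% of the gene body, and 97.0% of the genes with any Pol II coverage in KO MEFs had a smaller share. A second maximum, of fold 13.9, lay in a peak that began 356 bp before the annotated end of the gene and extended 6420 bp past it. That peak also spans the end of B4galt4, a galactosyltransferase gene that converges on Upk1b with its end 4135 bp away, so Pol II there may belong to either gene. B4galt4 itself had MEF promoter folds of 7.81 in WT and 10.4 in KO. In WT MEFs and in both mESC lists no Pol II peak lay within 25 kb of the Upk1b gene.

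Crb2 (ENSMUSG00000035403, plus strand, chr2:37776249-37799103) had a promoter peak of 3942 bp in KO MEFs with its summit at +79, in exon 1, and 14 peaks further into the gene. The Pol II share of the gene body was 68.3% for KO MEFs, 1.31% for WT MEFs, 1.73% for WT mESCs and 0% for KO mESCs. The single WT MEF peak in the gene, of fold 3.45, lay 20068 bp downstream of the TSS near the end. The last peak of the KO MEFs that reaches the gene, of fold 11.96 and 7580 bp wide, also reaches past the end of Crb2, where it meets the end of Dennd1a, a gene for a regulator of endocytosis on the opposite strand. The ends of both gene records overlap by 112 bp, so Pol II there may belong to either gene. Dennd1a was called at its promoter in all 4 lists, with folds of 13.99 and 19.01 in the MEF lists of WT and KO.

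Upk3b (ENSMUSG00000042985, plus strand, chr5:136038496-136046487) was covered by Pol II almost from end to end in KO MEFs. A peak that began 1219 bp before the TSS and ended 3596 bp after it, with its summit at +275 in exon 1, and a second peak from 3849 to 11953 bp together covered 96.8% of the gene body. The second peak, of fold 9.56, had its summit 10799 bp from the TSS, beyond the annotated end at 7991 bp. The nearest TSS is that of its paralogue Upk3bl, 15996 bp away, which had no promoter peak in any list.

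Msln (ENSMUSG00000063011, minus strand, chr17:25748613-25754378) had a KO MEF promoter peak that reached 3261 bp before and 3033 bp past the TSS, with its summit at -5. Pol II covered 57.7% of the gene body in KO MEFs and 0% in each of the other lists. The end of Msln lies 283 bp from the end of Mslnl, the mesothelin-like gene on the opposite strand. Pol II peaks covered 53.7% of Mslnl in KO MEFs and 0% in WT MEFs, with no promoter peak at Mslnl in either.

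Wt1 (ENSMUSG00000016458, plus strand, chr2:105126529-105173616) had a KO MEF promoter peak of 8086 bp with its summit at +142 in exon 1 and 13 further peaks, the last of which ended 44810 bp into the gene of 47088 bp, for a covered share of 33.9%. The start of the antisense transcript Wt1os lies 19 bp from the Wt1 TSS on the other strand. ChIP-seq reads carry no strand of transcription, so the promoter peak cannot be assigned to Wt1 or Wt1os. Pol II covered 1.59% of the 49973 bp of Wt1os. In contrast, the further peaks lie within Wt1, and no Wt1 peak of Pol II was called in the other 3 lists.

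**Figure D2:**
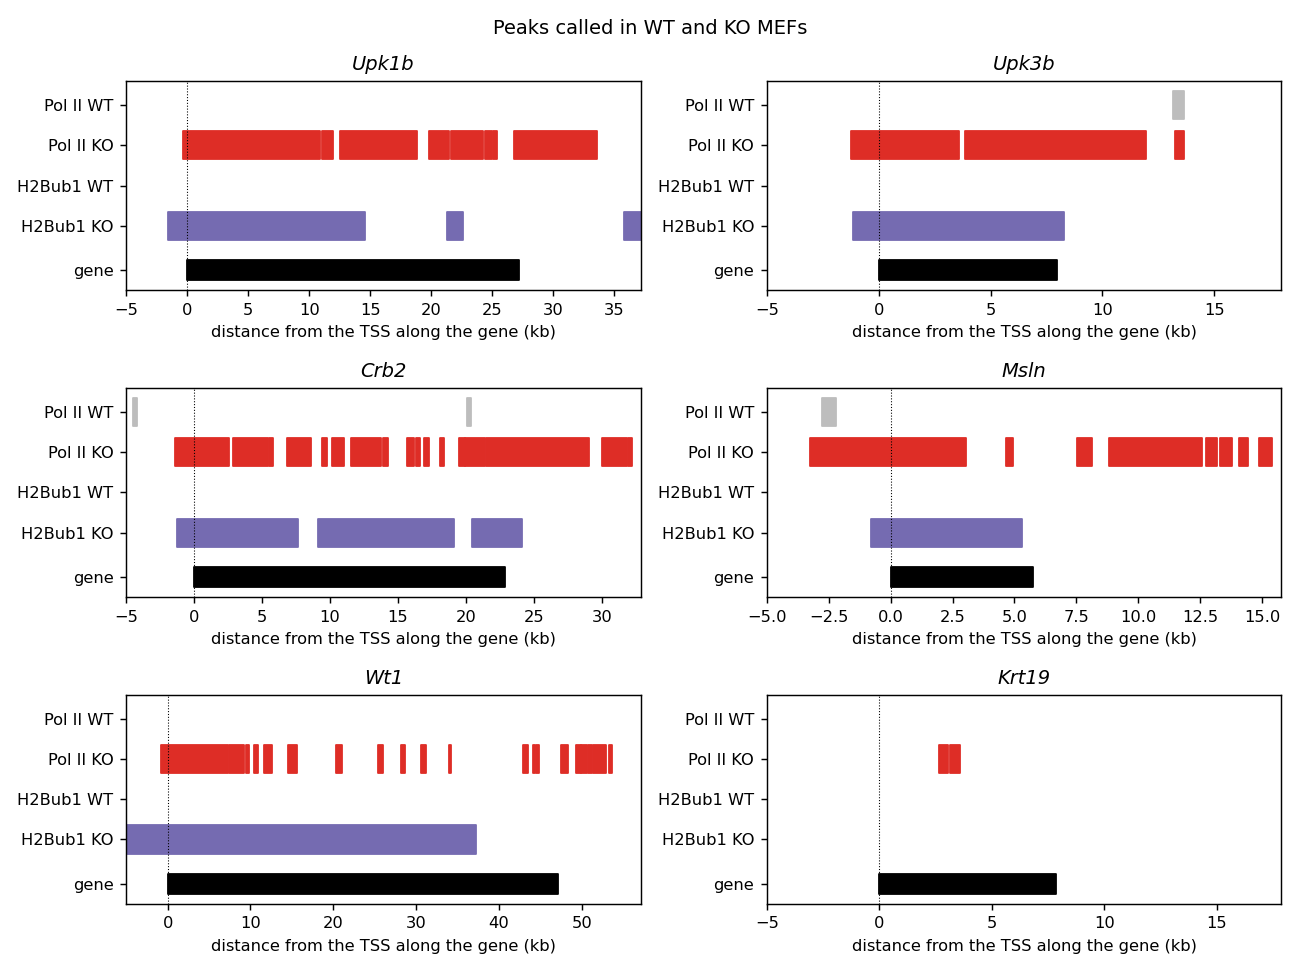
Peaks called in MEFs at 6 of the genes, drawn to scale against the distance from the TSS along the gene (kb, horizontal axis). The rows are Pol II in WT and KO, H2Bub1 in WT and KO, and the gene itself. In KO MEFs both marks run over Upk1b, Upk3b, Crb2, Msln and Wt1, in WT MEFs only short Pol II peaks appear (near Upk3b, Crb2 and Msln) and no H2Bub1, and Krt19 has only Pol II peaks in KO MEFs.

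Past the annotated gene end Pol II was also called. The 3000 bp beyond the end were covered to 100% at Upk1b, Upk3b and Crb2 in KO MEFs, to 51.1% at Wt1 and to 20.9% at Msln. In WT MEFs the same stretch was covered to 0% at each of the 5 genes. Body peaks, defined as peaks that reach more than 1000 bp downstream of the TSS, were called at 6 of the 9 genes in KO MEFs (32.9% of all genes) and at 1 of 9, Crb2, in WT MEFs (41.0% of all genes). In KO MEFs only they were called at 5 of the 9 (Upk1b, Upk3b, Msln, Wt1 and Krt19), against 3.03% of all genes.

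H2Bub1 peaks followed the same division of the set. The promoter calls that brought in Upk1b and Crb2 did not use the H2Bub1 libraries, although these came from the same cell populations. H2Bub1 is still no separate check on those calls. In KO MEFs it was called at 93.3% of genes with a Pol II promoter peak and at 10.9% of genes without. In WT MEFs 0 of the 9 gene bodies held an H2Bub1 peak, against 30.4% of all genes. In KO MEFs 5 of 9 had one, against 53.0% of all genes, and these were Upk1b, Upk3b, Crb2, Msln and Wt1. Called in KO MEFs only were the same 5 of 9, against 22.9% of all genes. A Pol II promoter peak and H2Bub1 both in KO MEFs only were found at 0.953% of all genes.

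**Figure D3:**
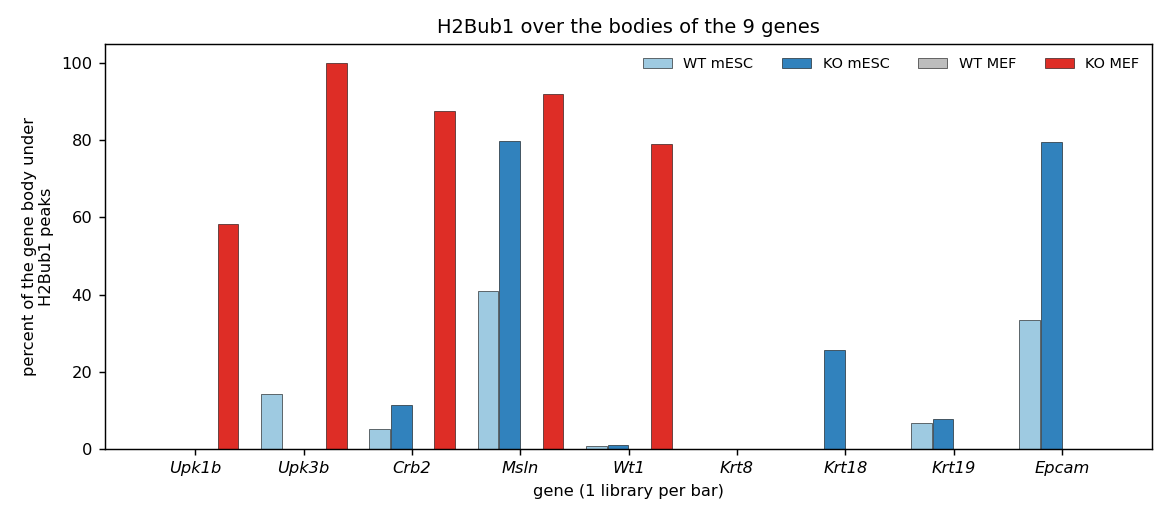
Percent of the gene body under H2Bub1 peaks (vertical axis) for the 9 genes, with 1 bar for each of the 4 libraries. In KO MEFs bars between 58.3% and 100% stand at Upk1b, Upk3b, Crb2, Msln and Wt1, no bar stands in WT MEFs, and in mESCs the tallest bars are those of Msln and Epcam.

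The covered share of Upk3b was 100% in KO MEFs, 0% in WT MEFs, 14.3% in WT mESCs and 0% in KO mESCs. For Msln it was 92.1% in KO MEFs, 0% in WT MEFs, 40.9% in WT mESCs and 79.9% in KO mESCs. For Crb2 it was 87.7% in KO MEFs, 0% in WT MEFs, 5.08% in WT mESCs and 11.5% in KO mESCs. These genes had their highest share in KO MEFs, with mESC values of KO above WT at Msln and Crb2 and below at Upk3b. For Wt1 it was 79.1% in KO MEFs, 0% in WT MEFs, 0.601% in WT mESCs and 1.07% in KO mESCs. For Upk1b it was 58.3% in KO MEFs and 0% in each of the other 3 lists.

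Set against genes with any H2Bub1 peak in KO MEFs, the share of Upk1b lay near the middle. Those of Wt1, Crb2, Msln and Upk3b were higher but not extreme. Of the genes with any H2Bub1 peak in KO MEFs, 57.2% had a smaller share than Upk1b, 74.7% than Wt1, 81.1% than Crb2, 84.2% than Msln and 89.2% than Upk3b. The median over the 9 genes was 58.3% in KO MEFs, against 4.29% over all genes and 50.5% over genes with any peak. Among the 321 promoters with Pol II in KO MEFs only, 71.3% had H2Bub1 in KO MEFs, with a median share of 9.91%. Among all promoters with Pol II in KO MEFs 93.3% had H2Bub1, and among genes without such a promoter peak 10.9%.

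The place of H2Bub1 within the genes varied. At Upk1b a broad peak began 1538 bp upstream of the TSS and ended 14525 bp into the gene, and the second part of the gene held 1 short peak of 1309 bp, although Pol II was called there. At Wt1 a single peak of 47.6 kb began 10374 bp upstream, over Wt1os, and ended 37228 bp into the gene. At Crb2 there were 3 peaks, and the mean fold of the first, 4.90, was above those of the second, 2.48, and of the third. At Upk3b and Msln 1 peak covered the gene, starting 1147 bp before the TSS and ending 8298 bp after it at Upk3b, and starting 802 bp before and ending 5310 bp after it at Msln.

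**Figure D4:**
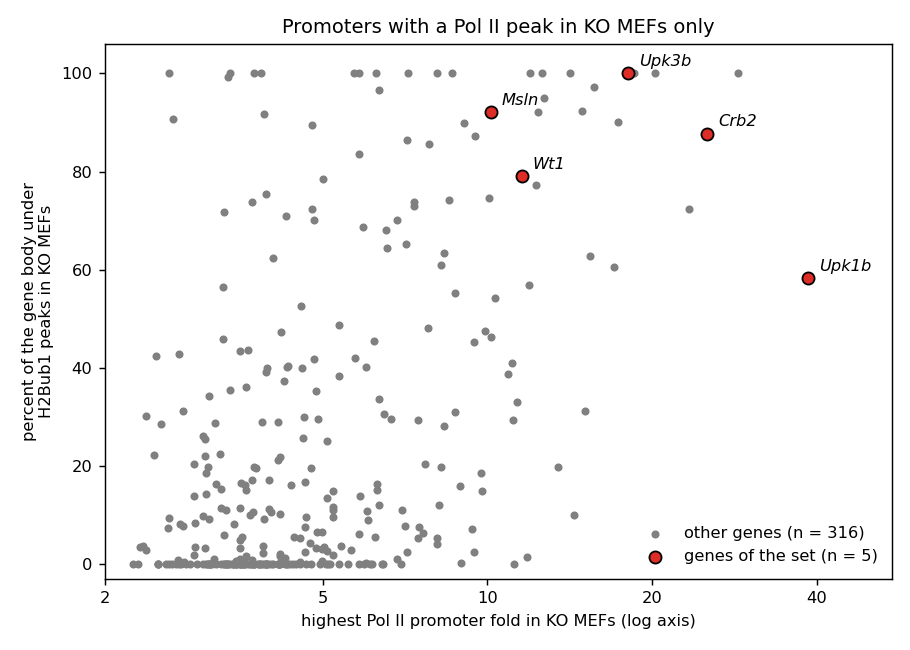
The 321 promoters with a Pol II peak in KO MEFs only, by highest promoter fold (horizontal log axis) and percent of the gene body under H2Bub1 peaks in KO MEFs (vertical axis). The 5 genes of the set lie to the right, between 10.2 and 38.6, and in the upper part, between 58.3% and 100%, while the medians of the 321 are 4.26 and 9.91%. Upk1b and Crb2 were chosen by their promoter calls, so these positions are a description.

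The keratin genes differed from these 5. Krt8 (ENSMUSG00000049382, minus strand, chr15:101996698-102004482) had no peak of either mark in the gene or its promoter window in any of the 8 lists. Krt18 (ENSMUSG00000023043, plus strand, chr15:102028180-102032027), whose product pairs with that of Krt8 in filaments, had no Pol II peak in the gene and an H2Bub1 share of 25.6% in KO mESCs alone. The 2 genes lie head to head, 23.7 kb apart. In that interval 2 Pol II peaks were called in KO MEFs, of fold 3.40 and 5.14, and 0 in each of the other 3 Pol II lists. The stronger one ended 2259 bp upstream of Krt18. No H2Bub1 peak lay in the interval in any list. A lincRNA gene, Gm36026, starts 270 bp from the Krt8 TSS and had no promoter peak either.

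Krt19 (ENSMUSG00000020911, minus strand, chr11:100140810-100148665) stood between both groups. In KO MEFs 2 Pol II peaks, of fold 3.67 and 4.06, lay between 2654 and 3570 bp downstream of the start of the gene record, and 0 peaks were called in the other 3 Pol II lists. A shorter annotated transcript of Krt19 starts 2545 bp into the gene record, 109 bp before the first of these peaks. With any annotated transcript start allowed, Krt19 therefore counted as called in KO MEFs only, and 6 of the 9 genes did. Its H2Bub1 share was 0% in both MEF lists, 6.75% in WT mESCs and 7.70% in KO mESCs.

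Epcam (ENSMUSG00000045394, plus strand, chr17:87635979-87651129) was the gene of the set with a Pol II promoter peak in mESCs. Its promoter fold was 3.14 for WT mESCs and 5.50 for KO mESCs, with no Pol II peak in the gene in either MEF list. Its H2Bub1 share was 33.4% in WT mESCs, 79.5% in KO mESCs and 0% in both MEF lists. In mESCs 33.9% of all genes in WT and 31.3% in KO had a promoter peak, against 1 of the 9 in each. H2Bub1 was called at 6 of the 9 genes in WT mESCs (53.6% of all genes) and at 6 of 9 in KO mESCs (60.8% of all genes). The mESC share was higher in KO than in WT at 6 of the 9 genes, against 53.3% of all genes, and lower at 1, against 9.34%. Where peaks had to reach a -log10 q of 3, Epcam was the gene left with an H2Bub1 call in each mESC list, so the mESC shares of the other genes rest on weak peaks.

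The other genes of these families and cell types were read from lists that were written with earlier results of these data known. Of 20 mesothelial genes, 12 had a Pol II promoter peak in KO MEFs only (60%, against 1.46% of all genes), 5 in both MEF lists, 0 in WT only and 3 in neither. Without the genes already described, the count was 8 of 15. The 6 of these 8 with the highest folds in KO MEFs were Bnc1, the basonuclin zinc finger gene (18.5), Tcf21, a bHLH factor of the epicardium and visceral mesoderm (18.2), Lrrn4 (14.2), Rspo1, a secreted activator of Wnt signalling (12.7), Muc16, which encodes the mucin that binds mesothelin (6.23), and Aldh1a2, the retinoic acid synthesising enzyme (4.66). H2Bub1 in KO MEFs covered 100% of Bnc1, Tcf21 and Lrrn4, 95.1% of Rspo1, 9.61% of Aldh1a2 and 5.43% of Muc16, and 0% of each in WT MEFs. Over the whole list H2Bub1 was called at 2 of 20 genes in WT MEFs and at 16 of 20 in KO MEFs, against 30.4% and 53% of all genes. The median covered share was 0% and 50.5%. Pdpn, the podoplanin gene, named here after its values were seen, had a promoter peak in both MEF lists, with 5.49 in WT and 24.3 in KO. Of the 5 genes called in both, 3 had a lower fold in KO, against 67.7% of all promoters called in both MEF lists. Among the 3 was Bnc2, the other basonuclin gene of the list, with 16.7 in WT and 4.90 in KO. Calb2, the calretinin gene, which is a marker of adult mesothelium, had no peak in MEFs.

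Of 6 uroplakin genes, Upk1b and Upk3b were called, and Upk1a, Upk2, Upk3a and Upk3bl were at 0 in all 4 Pol II lists. Upk1a, Upk2 and Upk3a encode the partners of these proteins in the bladder plaque. Of 3 crumbs genes, Crb2 and Crb3 were called in KO MEFs only, Crb3 with a fold of 5.22. In the list of 19 crumbs, Par and Scribble polarity genes, 3 were called in KO MEFs only, 14 in both MEF lists and 2 in neither. Besides the crumbs genes the third was Prkcz, an atypical protein kinase C, with 7.46. With a window from 100 bp before to 300 bp past the TSS, the count in KO MEFs only was 2. Over all genes 49.6% were called in both MEF lists. The list opened with Crb2 (25.2), followed by Pard6b, a scaffold of the Par complex (5.70 for WT MEFs and 21.9 for KO MEFs). Of the 14 polarity genes called in both, 9 had a lower fold in KO, against 67.7% of all promoters called in both MEF lists.

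Epithelial junction and keratin genes mostly had no Pol II promoter peak in MEFs. Of 25 such genes 20 had a promoter peak in neither MEF list, 3 in KO only (12%), 1 in WT only and 1 in both. Over all genes 44.5% were called in neither. Those in KO MEFs only were Krt7, a keratin of simple epithelia and mesothelium (11.3), and the protease inhibitor genes Spint2 (9.50) and Spint1 (8.24). Krt7 had an H2Bub1 share of 33.1% in KO MEFs and Pol II over 77.1% of the gene, and of 53 genes with keratin symbols it was 1 of the 2 called, the other, named after its values were seen, being Krt80. Prss8, a membrane-anchored serine protease gene, was called in WT MEFs only (3.50). Jup, the gene for plakoglobin of desmosomes and adherens junctions, was called in both, with 22.4 in WT and 35.1 in KO. The epithelial cadherin gene Cdh1, also named after its values were seen, had promoter peaks in both mESC lists and no peak in MEFs.

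Of 13 genes for epithelial transcription and splicing regulators, 10 had a promoter peak in neither MEF list, 2 in both and 1, Grhl1, a grainyhead-like factor, in KO only (4.86). The list opened with the splicing regulator Esrp2 (9.56 for WT MEFs and 17.7 for KO MEFs). All 6 genes of repressors that drive the epithelial-mesenchymal transition (Snai1, Snai2, Zeb1, Zeb2, Twist1 and Twist2) were called in both MEF lists, and 6 of 6 had a lower fold in KO MEFs. The highest in KO MEFs was Twist1, with 26.8 in WT and 20.3 in KO, and the lowest was Twist2, with 10.47 in WT and 5.38 in KO. At the 10892 promoters called in both MEF lists the fold in KO over that in WT had a median log2 of -0.23, and 67.7% were lower in KO. The H2Bub1 share of these repressor genes was higher in KO MEFs at 6 of 6, with medians of 28.9% in WT and 74.8% in KO. Of all genes 52.6% were higher in KO MEFs, 0.506% were lower and the rest were equal. A higher share in KO was thus the rule wherever the shares differed.

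**Figure D5:**
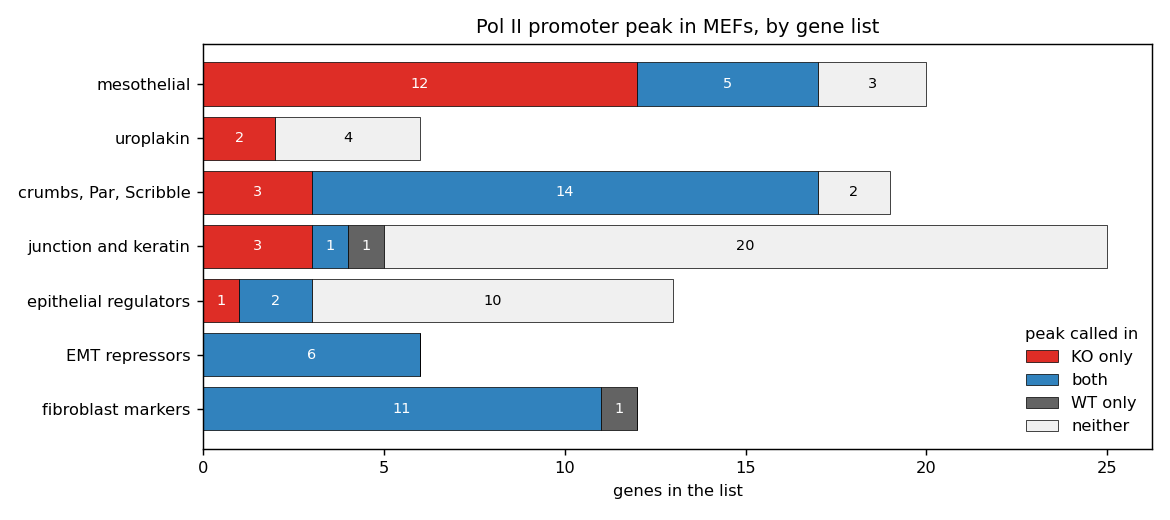
Number of genes (horizontal axis) in 6 gene lists and the fibroblast markers with a Pol II promoter peak in KO MEFs only, both MEF lists, WT MEFs only or neither. The mesothelial list has 12 of 20 genes in KO only, the junction and keratin list has 20 of 25 in neither, and the repressors of the epithelial-mesenchymal transition are all called in both.

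Markers of cell types that a trunk culture could hold were read beside these counts, and their part in the result was not tested. Fibroblast markers were called at 11 genes in both MEF lists and at 1, Postn, in WT only. The fold was lower in KO MEFs at 10 of the 11, against 67.7% of all promoters called in both MEF lists. H2Bub1 was called at 7 of 12 in WT MEFs and 10 of 12 in KO MEFs. Of 6 genes each, promoter peaks in KO MEFs only were found at 1 endothelial marker (Pecam1, 4.31), 1 blood marker (Csf1r, 3.53), 1 heart muscle marker (Tnnt2, 4.18), 1 pluripotency marker (Tfcp2l1, 7.08), 0 neural and neural crest markers and 0 endoderm markers. Their folds were 3.53 to 7.08. The 8 mesothelial genes outside the set that were called in KO MEFs only ran from 3.32 (Gpm6a) to 18.5 (Bnc1). The 5 genes and the mesothelial list were both chosen with earlier results known. The 8 were also picked by their call in KO MEFs only. Their folds are therefore a description and no comparison of mesothelial genes with these markers. In WT MEFs only, the endothelial receptor gene Kdr was called (2.61). In both MEF lists 3 blood markers and 2 neural markers were called. H2Bub1 was called at 1 of 6 blood markers in WT MEFs and at 5 of 6 in KO MEFs, against 30.4% and 53% of all genes. The promoter folds of the blood markers called in both were 4.93 in WT and 8.42 in KO for Spi1, a transcription factor of myeloid cells, 6.00 and 9.37 for Lyz2, a lysozyme gene of macrophages, and 19.9 and 19.5 for Cd68, a lysosomal protein gene of macrophages, all named after their values were seen. Cd68 was also called in mESCs, with 18.5 in WT and 14.3 in KO, whereas Spi1 and Lyz2 were not. Ptprc and Gata1, the remaining blood markers, had no promoter peak in either MEF list. The H2Bub1 share of Ptprc was 11.5% in KO MEFs and 0% in WT MEFs, and that of Gata1 was 0% in both. A list of 6 markers does not cover a cell type. The 321 promoters called in KO MEFs only also held macrophage genes outside the list. Among them were Adgre1 (5.40), Mpeg1 (4.79), Cx3cr1 (4.18) and Itgam (4.17), named after their values were seen. Such genes were not counted.

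The genes whose pattern over the 8 lists was nearest to that of Upk1b were Tmem88b, Tmem151a and Stk26, at distances of 1.29, 1.44 and 1.62 on a scale that joins the log2 promoter folds and the covered shares. The genes nearest to Crb2 were Fam84a, Gpsm3 and Tmem151a, at 0.819, 0.847 and 0.926. Of these, Fam84a and Stk26 were like Upk1b in having no WT MEF Pol II peak nearby, with the nearest at 882536 and 176080 bp. For Tmem88b and Gpsm3 a WT MEF peak lay 1020 and 1044 bp from the TSS, so that the absence of a WT call there turned on the edge of the window, and for Tmem151a it lay 2406 bp away. No member of the mesothelial list was among them.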

How the data were processed

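Libraries for Pol II (RPB1) and H2Bub1 were analysed, 8 of the 16 samples in the labels. The inputs and the libraries of serine 2 phosphorylated Pol II were not analysed here. The authors mapped 50 bp single-end reads to mm10 with Bowtie (1.0.0 in the submitters' processing notes) and called peaks per library with MACS2 (2.1.1.20160309), narrow for Pol II and broad for H2Bub1. Controls and thresholds are not given in the sources used here. Scaling was by mapped reads for Pol II and by intergenic reads for H2Bub1, and how it entered the calls is not stated. The deposited values are a fold (ratio of pileup to local background) and the -log10 p and -log10 q of each peak.

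Peaks were set against GENCODE M21. A promoter call needed 1 bp of peak within 1000 bp of the start of the gene record and an H2Bub1 call 1 bp in the gene body. The covered share is the percent of the gene body under peaks, which moves with the unknown read depth. With 1 library per group no test was run. The 9 genes and the gene lists were chosen with earlier results of these data known. Also named are list members called in 1 MEF genotype only or at either end of a list (at most 6 a list), neighbouring genes, and the 3 genes nearest to Upk1b and Crb2 by Euclidean distance over 8 values (log2 of 1 plus promoter fold, covered fraction times 5). Results were recomputed with a -log10 q of at least 3, equal peak numbers per genotype pair, a window from 100 bp before to 300 bp past the TSS, any transcript start, the summit in the window, 10% of the body covered, and peaks less than 1000 bp apart joined. Functions were tested on simulated peaks. Computing used Python 3.11.15 with numpy 2.4.6, pandas 2.3.3 and matplotlib 3.10.9.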

Additional observations from a re-analysis of the deposited data

Results flagged for a closer look

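At 2 of the genes the difference between KO and WT had opposite signs in the 2 cell types. The difference was not tested, since each group is 1 library. The H2Bub1 covered share of Upk3b was lower in KO than in WT mESCs (14.3% in WT, 0% in KO) and higher in KO than in WT MEFs (0% in WT, 100% in KO), which sets the MEF difference 114.3 points above the mESC difference. The mESC value rests on 1 peak of 1144 bp with a -log10 q of 1.61.

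The Pol II covered share of Crb2 was 1.73% for WT and 0% for KO in mESCs, and 1.31% for WT and 68.3% for KO in MEFs. The MEF difference of 67.0 points stood 68.7 points above the mESC difference. The mESC value rests on 1 peak of 396 bp near the end of the gene.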

How the results depend on the processing

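No paired analysis was possible because each group has 1 library and the labels give no replicate numbers. Counts and values were compared with their alternatives, and a value within 1.5 times the reported one was taken as unchanged. Of 82 alternatives for counts and medians 73 were unchanged, and of 252 for single genes 237 were. In MEFs the count of genes with a promoter peak in KO only was between 5 and 6 under the 5 alternatives. It was 3 (Upk1b, Upk3b and Wt1) when, chosen after seeing the data, no WT peak was allowed within 5000 bp of the TSS, a condition met by 246 of all 321 such promoters. The promoter fold of Krt19 in KO MEFs moved from 0 to 4.06 with any transcript start. Other moved values lay in mESCs or in the uroplakin list. With a -log10 q of at least 3, H2Bub1 was called at 1 of the 9 genes in WT mESCs and at 1 in KO mESCs, and both medians were 0. With 10% of the body required, 3 genes were called in WT mESCs. With the narrow window the Epcam promoter calls were lost, leaving 0 in each mESC list. Without the 9 genes the uroplakin list had 0 genes in KO MEFs only, by construction. Unknown read depth limits every covered share and every absence of a peak.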
